A study of Mus musculus with 6 samples.

Results

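CTBP2 binding was examined around Zeb1 and Zeb2, the genes of the paired zinc finger repressors ZEB1 and ZEB2. The members are the CTBP2 sites of the deposited table whose centre lay between 5.4 and 5.9 Mb on chromosome 18 (Zeb1) or between 44.75 and 46.2 Mb on chromosome 2 (Zeb2 and the gene desert beside it). Within the 2 regions the sites were taken by position alone, but the regions were chosen with earlier results of these data known. There were 118 such sites among 62236, 32 in the Zeb1 region and 86 in the Zeb2 region.

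CTBP2 is a co-repressor that does not read DNA itself. DNA-binding proteins recruit it through a short peptide motif, and it in turn brings histone deacetylases, histone methyltransferases and demethylases to the bound gene. ZEB1 and ZEB2 are among the best known of these recruiters. They bind E-box-like CACCT elements, repress epithelial genes such as Cdh1 and shape several blood lineages, and ZEB2 is known to preserve the identity of tissue macrophages. The sites below describe CTBP2 on the genes of its own partners. They do not measure ZEB1 or ZEB2 protein or their RNA.

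The cells were bone marrow-derived macrophages, grown in culture for 6 days from marrow of wildtype male C57BL6/N mice aged 6 to 12 weeks in medium with L929 cell supernatant, a source of macrophage growth factor. They were then plated in serum-free medium overnight. In the LPS group, 3 libraries came from cells given 100 ng/ml lipopolysaccharide, a bacterial cell wall component, for 3 h. In the vehicle group, 3 libraries came from cells given PBS. All 6 were made by chromatin immunoprecipitation with the same CTBP2 antibody, so genotype, sex, strain, culture and antibody are shared. The labels number the replicates without saying whether they are separate mice or cultures, so every p-value reflects library-to-library scatter alone, some of which could be technical. Input or mock immunoprecipitation libraries were not analysed here. The labelled cell type could not be checked, since the table holds binding and no expression, and a change in all cells cannot be told apart from a change in a share of them.

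Each library was scaled to the same median site (46.9). The deposited medians had been 37.1, 48.8 and 61.0 in LPS replicates 1, 2 and 3, and 35.5, 37.3 and 73.0 in vehicle replicates 1, 2 and 3. With the estimated step of a column taken as 1 read, an approximation, the libraries held 3243258 to 4553176 reads in the sites, and single values of the member sites rested on 4 to 312 reads, with a median of 41. Values below are scaled signal, a change is given as log2 of LPS over vehicle on the log2(value + 1) scale, and a site was called at an adjusted p under 0.05 in limma, with Benjamini-Hochberg adjustment over all 62236 sites. The site positions are on GRCm39 by the selection rule, whereas the gene names and distances in the table follow GRCm38. Sites were therefore tied to genes by an offset measured within the table. Around Zeb2, the starts of 50 of 136 genes met a site at an offset of -109.925 kb, against 6 with none. Around Zeb1, 18 of 29 gene starts met a site with no offset, and none was applied. The table itself names 27 of the 86 Zeb2 sites Gtdc1, and 17 of those 27 lie within the Zeb2 gene at the measured offset.

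Promoter windows of Zeb2 are shown because its groups of start sites differed in whether CTBP2 was found there. RefSeq places the Zeb2 starts in several groups on the minus strand. The window of the innermost start, whose nearest site was centred 3.09 kb away, is not shown. The first window lies before the outermost start, which had no CTBP2 site centred within 4 kb. The second lies before an inner start, about 4 kb along the gene, and was under a strong site. Both are the 250 bases before the start, from RefSeq on GRCm38.p6, written 5′ to 3′ on the minus strand, with CACCT or its complement AGGTG in capitals.
Zeb2 outermost start, chr2:45117443-45117692: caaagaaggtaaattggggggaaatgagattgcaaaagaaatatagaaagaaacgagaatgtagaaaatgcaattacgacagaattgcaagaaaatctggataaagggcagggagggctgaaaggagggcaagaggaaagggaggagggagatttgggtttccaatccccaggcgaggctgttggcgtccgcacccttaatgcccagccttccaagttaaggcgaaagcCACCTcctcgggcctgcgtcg
Zeb2 inner start, chr2:45113280-45113529: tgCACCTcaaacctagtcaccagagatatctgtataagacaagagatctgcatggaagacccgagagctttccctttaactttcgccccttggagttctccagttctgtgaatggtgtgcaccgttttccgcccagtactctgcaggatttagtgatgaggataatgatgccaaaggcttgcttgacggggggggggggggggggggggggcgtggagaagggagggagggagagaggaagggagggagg
Each window held 1 CACCT on either strand and no CACCTG, the longer E-box form. CACCT on either strand was in 46.0% of 32851 RefSeq windows of this length, and CACCTG, which overlaps it, in 17.2%. A match is a run of letters and not a shown binding site.

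The question for the LPS comparison was where around these genes CTBP2 signal differed after the inflammatory stimulus. In the Zeb1 region 16 of 32 sites were higher after LPS, 1 was lower and 15 were not called. Among all sites of the table, 16.1% were called higher and 13.5% lower. In the Zeb2 region 26 of 86 sites were higher, 7 were lower and 53 were not called. The median change was 0.65 in the Zeb1 region and 0.32 in the Zeb2 region, and -0.017 over all sites. Scaling each library by its median holds the value over all sites near 0, so a change shared by all sites could not be seen. The LPS libraries all exceeded the vehicle libraries at 20 Zeb1 and 34 Zeb2 sites (21.6% of the whole table did so), and all fell below them at 1 Zeb1 and 8 Zeb2 sites (20.6% of the whole table). These are counts of neighbouring sites in 2 regions, not of independent genes. The regions were chosen with earlier results of these data known, so the counts are descriptive.

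How many sites pass depends on the scaling. On the deposited values with no scaling, 4 Zeb1 and 3 Zeb2 sites were higher and none of the 118 was lower, against 1.89% (1178 sites) higher and 0.0482% (30 sites) lower over the whole table. Of the 26 sites named below, not all of which were called after median scaling, 18 lost their call on that scale. Higher sites made up 97.5% of all calls there, and 54.4% after median scaling. The scalings differ by 0.062 in the median log2 change of all sites, so like counts of signs are no separate support. The change was above 0 at 30 of 32 Zeb1 sites under either scaling, and at 66 of 86 Zeb2 sites after median scaling and 69 on the deposited scale. In the authors' deposited table, 7 Zeb1 and 3 Zeb2 sites were higher at an FDR under 0.05 and none was lower, against 4.01% and 0.37% of all sites.

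Summed over its 32 sites, the Zeb1 region carried 2103, 2097 and 1937 units of scaled signal in the LPS libraries, and 1413, 1441 and 1125 in the vehicle libraries. The groups did not overlap, and their mean log2 sums differed by 0.63, a ratio of 1.55. The sum over the 86 Zeb2 sites was 5130, 5095 and 5646 in the LPS libraries, and 4218, 4081 and 4493 in the vehicle libraries. Again the groups did not overlap, with a ratio of 1.24 (log2 0.31). Both gave p = 0.1 in a two-sided exact permutation test, the smallest that 3 against 3 libraries can give. On the deposited values with no scaling, the log2 changes of the sums were 0.37 for Zeb2 and 0.70 for Zeb1. The exact permutation p was then 0.5 for Zeb2 and 0.2 for Zeb1, so the groups overlapped on that scale. The ratio of the Zeb2 sum to the Zeb1 sum was 2.44, 2.43 and 2.92 in the LPS libraries, and 2.99, 2.83 and 3.99 in the vehicle libraries. Here the groups overlapped. The change of the Zeb2 sum relative to the Zeb1 sum was -0.32 on the log2 scale (exact permutation p = 0.2). Without vehicle replicate 2 it was -0.42, and without vehicle replicate 3 it was -0.17, the extremes of leaving out 1 library. With all libraries and the mean of log2 values in place of the sum, the change was -0.42, with the smallest possible p of 0.1. A design of 3 against 3 libraries cannot show by this test whether the regions differ.

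At Zeb1 the sites with the largest change lay upstream of the gene. The leading one (chr18:5509778-5510778, 81.0 kb upstream) had 123, 121 and 98.4 units in the LPS libraries, and 16.0, 26.5 and 20.5 in the vehicle libraries. Every LPS library was several times above every vehicle library, and the log2 change was 2.41 ± 0.19 (SE, limma adjusted p = 1.57e-11). The site lies within Gm10125, a RefSeq gene whose body also reaches the Zeb1 start. In vehicle cells its mean was higher than that of only 6.37% of all sites.
A second upstream site (chr18:5473628-5474628, 117 kb upstream) had 64.4, 79.4 and 74.0 units after LPS, and 16.0, 14.5 and 8.43 in vehicle. Those vehicle values rest on 14, 17 and 7 reads, among the lowest 0.417% of all sites. The log2 change was 2.44 ± 0.24 (limma adjusted p = 1.83e-09). In the authors' deposited table these 2 sites had log2 changes of 2.02 and 2.13, with FDRs of 1.1e-06 and 4.94e-07. Both were named for their change, which the vehicle values enter, so low vehicle ranks are partly built in.

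The start of Zeb1 itself carried a site (chr18:5591232-5592232) whose centre lay 0.128 kb from the annotated start. It had 131, 130 and 87.5 units in the LPS libraries, and 50.4, 49.5 and 45.7 in the vehicle libraries, without overlap. The log2 change was 1.22 ± 0.17 (limma adjusted p = 1.23e-06). Because Gm10125 spans the same start, the signal cannot be assigned to one of the 2 genes.

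Inside Zeb1 the strongest site of the region was not called. That site (chr18:5688127-5689127, 97.3 kb along the gene) had 175, 154 and 138 units after LPS and 148, 159 and 107 in vehicle, and the groups overlapped (log2 change 0.19 ± 0.15, limma adjusted p = 0.372). Farther along (chr18:5740118-5741118, 149 kb from the start), the signal was 114, 119 and 116 units after LPS and 46.9, 55.5 and 46.9 in vehicle. Here the groups were far apart (log2 change 1.21 ± 0.16, limma adjusted p = 3.64e-07). In all, 3 of the 10 sites within the gene were higher, beside 16.1% of all sites, and none was lower.

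The sites past the end of Zeb1, towards Arhgap12, held the largest share of higher sites among the stretches. There 9 of 10 were higher, beside 16.1% of all sites. LPS lay above vehicle without overlap at all 10, as it did at 21.6% of all sites. The changes past the Zeb1 end were between 0.43 and 1.56. The strongest of them (chr18:5806068-5807068) had 150, 161 and 139 units after LPS and 98.4, 101 and 91.5 in vehicle (log2 change 0.62 ± 0.14, limma adjusted p = 0.000871). A neighbour (chr18:5802537-5803537) had 120, 117 and 108 units after LPS and 87.0, 104 and 66.2 in vehicle. It was called at 0.44 ± 0.16 (limma adjusted p = 0.0339), but leaving out any 1 of 4 libraries (LPS 1 or 2, vehicle 1 or 3) took the adjusted p to as much as 0.180.
The only lower site of the Zeb1 region (chr18:5440832-5441832) lay 149.995 kb upstream, where the nearest name in the deposited list is Zfp438. It had 80.8, 81.1 and 61.4 units after LPS, and 101, 113 and 102 in vehicle (log2 change -0.51 ± 0.16, limma adjusted p = 0.0136). The call was lost without LPS replicate 3 or without vehicle replicate 2, with an adjusted p of up to 0.0940.

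**Figure D1:**
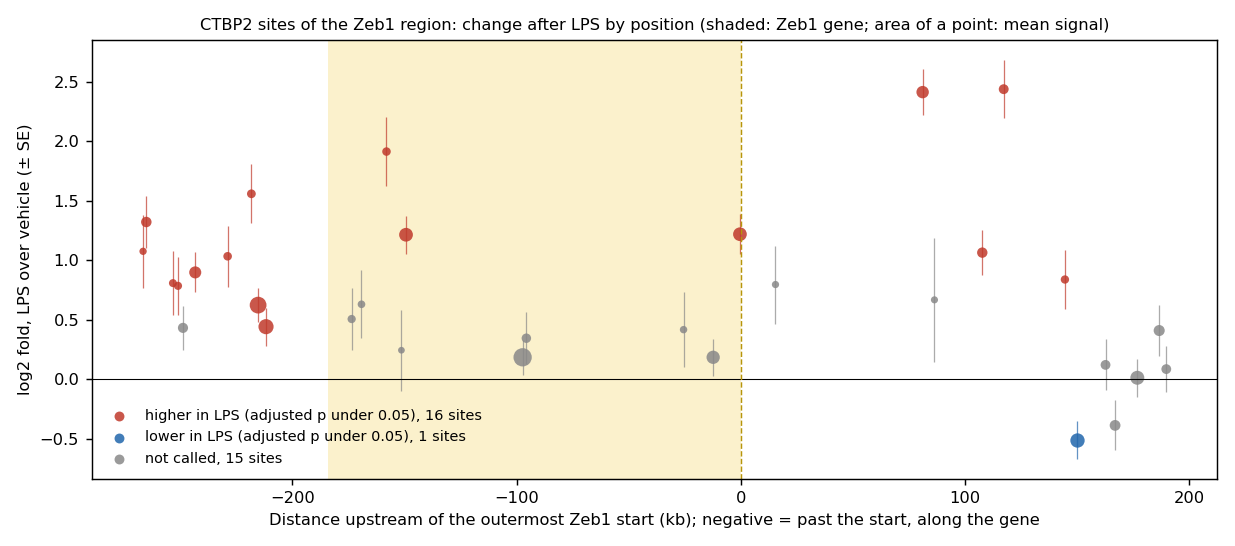
Change of CTBP2 signal at the 32 sites of the Zeb1 region. Horizontal axis, distance in kb upstream of the Zeb1 start, with the gene shaded; vertical axis, log2 of LPS over vehicle with its SE; point area follows the mean scaled signal. The 2 highest points, at 2.41 and 2.44, lie 81.0 and 117 kb upstream, and 9 of the 10 points past the gene's end are called higher.

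At Zeb2, CTBP2 was not called as changed at the inner starts, the only Zeb2 starts under a site. The site over the inner Zeb2 starts (chr2:45002938-45003938), whose promoter window is printed above, was centred 0.084 and 0.11 kb from them at the measured offset. It had 146, 137 and 156 units in the LPS libraries, and 144, 134 and 174 in the vehicle libraries. The groups overlapped, and the log2 change was -0.034 ± 0.14 (limma adjusted p = 0.881). Its sign turned to 0.028 on the deposited scale. The site was already strong in vehicle cells, with a mean above that of 96.2% of all sites, and it also covers Zeb2os, the antisense RNA gene of the locus. Whether the starts of the 2 genes differ in their response was not tested as such.

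Just outside the outermost start, 8.78 kb upstream (chr2:45015799-45016799), the signal was 111, 92.2 and 121 units after LPS and 48.1, 36.7 and 49.3 in vehicle. The groups did not overlap, with a log2 change of 1.26 ± 0.17 (limma adjusted p = 7.35e-07). It was the nearest higher site upstream of the gene.

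Within the Zeb2 gene 4 of 24 sites were higher and none was lower, a share of 16.7% that is close to the 16.1% of the whole table. The leading one (chr2:44979136-44980136, 27.9 kb along the gene) had 122, 108 and 155 units after LPS, and 51.5, 52.9 and 77.0 in vehicle (log2 change 1.08 ± 0.17, limma adjusted p = 1.18e-05). The strongest one (chr2:44939010-44940010, 68.0 kb along) had 171, 194 and 205 units after LPS, and 173, 157 and 170 in vehicle, and was not called (log2 change 0.19 ± 0.13, limma adjusted p = 0.297).
Past the end of the gene the sites were stronger, at 97.0 ± 4.72 units per site after LPS and 60.7 ± 2.86 in vehicle (SD, n = 3 each). Beside 16.1% of all sites, 4 of these 7 were higher. One of them (chr2:44842724-44843724) was among the strongest of all members, with 260, 224 and 219 units after LPS and 135, 145 and 105 in vehicle. Its log2 change was 0.87 ± 0.14 (limma adjusted p = 1.11e-05). Another (chr2:44871313-44872313) had 108, 126 and 113 units after LPS, and 50.4, 50.3 and 72.2 in vehicle (log2 change 1.01 ± 0.17, limma adjusted p = 1.57e-05).
The strongest member of all (chr2:44816674-44817674) sat on the start of Gtdc1, the neighbouring gene of a glycosyltransferase-like protein. It had 296, 266 and 223 units after LPS and 191, 190 and 218 in vehicle. The change was 0.38 ± 0.13 (limma adjusted p = 0.0247). Without any 1 of 4 libraries (LPS 1 or 2, vehicle 1 or 2) it was 0.29 to 0.36 and no longer called, with adjusted p of up to 0.135, and under quantile normalisation it was 0.26 (adjusted p = 0.106).

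Upstream of Zeb2 the gene desert held 52 sites between 8.78 and 1185 kb from the outermost start, 16 of them higher (30.8%, against 16.1% of all sites) and 7 lower (13.5%, as in the whole table). All 7 lower sites of the Zeb2 region were here, and 6 of them lay among the 17 sites of the first 250 kb, a share of 35.3% where 13.5% of all sites were lower. In the same stretch 3 sites were higher, a share of 17.6% that is close to the 16.1% of all sites, and the median change was -0.25.
The site with the largest fall (chr2:45084123-45085123, 77.1 kb upstream) had 30.6, 39.3 and 36.1 units after LPS, and 65.2, 58.0 and 68.6 in vehicle, without overlap (log2 change -0.84 ± 0.18, limma adjusted p = 0.000594). The next site along, 80.0 kb upstream (chr2:45087055-45088055), was chosen for its place and not by its rank. Its means were 141 ± 12.6 units after LPS and 133 ± 14.4 in vehicle (SD, n = 3 each), and it was not called (log2 change 0.083 ± 0.14, limma adjusted p = 0.697).
On the other side, 67.8 kb upstream (chr2:45074864-45075864), the signal was 26.2, 34.1 and 31.6 units after LPS and 50.4, 61.4 and 45.7 in vehicle. That site fell by 0.76 ± 0.20 on the log2 scale (limma adjusted p = 0.00388).

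The 4 other lower sites of this stretch varied in how firmly they held after median scaling when each library was left out in turn. On the deposited scale no lower Zeb2 site kept its call (limma adjusted p between 0.638 and 0.992). In the authors' deposited table the lower Zeb2 sites had FDRs between 0.361 and 0.787. At 103 kb (chr2:45109573-45110573) the signal was 73.1, 75.9 and 68.6 units after LPS and 106, 103 and 99.9 in vehicle, and the call (-0.50 ± 0.15, limma adjusted p = 0.0111) held without each library in turn. At 121 kb (chr2:45128462-45129462) it was 85.1, 84.5 and 77.6 units after LPS and 114, 106 and 112 in vehicle. The change was -0.42 ± 0.15 (limma adjusted p = 0.0284). Without LPS 2, LPS 3, vehicle 1 or vehicle 2 it kept its size, at -0.45 to -0.38, but missed the threshold, with an adjusted p of up to 0.0942.
Within Vis1, a RefSeq gene 153 kb upstream (chr2:45159917-45160917), the signal was 25.1, 41.0 and 45.1 units after LPS and 60.7, 60.6 and 60.2 in vehicle (-0.73 ± 0.20, limma adjusted p = 0.00506). Without LPS replicate 1, its lowest library, it was -0.48 with an adjusted p of 0.0651. At 236 kb a weak site (chr2:45242519-45243519) had 14.2, 25.6 and 25.3 units after LPS and 28.6, 41.8 and 37.3 in vehicle (-0.73 ± 0.27, limma adjusted p = 0.0356), and leaving out LPS 1, vehicle 2 or vehicle 3 took the adjusted p to between 0.0752 and 0.192.
Farther out, a lower site 1025 kb upstream (chr2:46031622-46032622) had 54.6, 52.9 and 73.1 units after LPS, and 97.3, 89.6 and 101 in vehicle. It fell by 0.68 ± 0.16 on the log2 scale (limma adjusted p = 0.00190), and the call held without each library in turn.

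**Figure D2:**
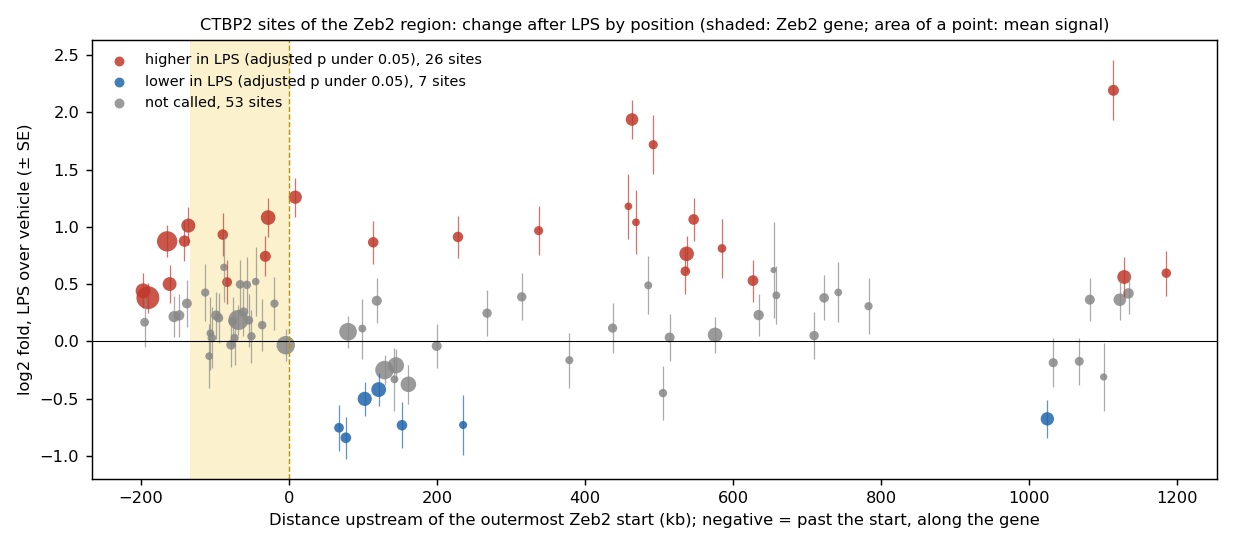
Change of CTBP2 signal at the 86 sites of the Zeb2 region at the measured offset. Horizontal axis, distance in kb upstream of the outermost Zeb2 start, with the gene shaded; vertical axis, log2 of LPS over vehicle with its SE; point area follows the mean scaled signal. Of the 7 lower sites 6 lie in the first 250 kb upstream, and the 3 highest points, between 1.72 and 2.19, lie 464, 492 and 1114 kb upstream.

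Farther upstream, most called sites were higher. Between 250 and 500 kb from the start, 5 of 10 sites were higher, beside 16.1% of all sites, and none was lower. The leading site of the Zeb2 region (chr2:45470627-45471627, 464 kb upstream) had 116, 108 and 109 units in the LPS libraries, and 25.2, 30.7 and 28.9 in the vehicle libraries. The replicates of each group lay close together and the groups far apart (log2 change 1.94 ± 0.17, limma adjusted p = 1.44e-10). It lies within Gm30848, and the authors' deposited table gave it a log2 change of 1.59 with an FDR of 0.000155.
At 492 kb (chr2:45499300-45500300) the signal was 50.2, 61.4 and 56.0 units after LPS, and 27.5, 12.8 and 12.0 in vehicle (log2 change 1.72 ± 0.26, limma adjusted p = 5.51e-06). At 547 kb (chr2:45553887-45554887) it was 72.0, 57.2 and 73.1 units after LPS and 27.5, 31.6 and 36.1 in vehicle (log2 change 1.06 ± 0.19, limma adjusted p = 4.47e-05).
The largest change of the Zeb2 region was the most distant of these, 1114 kb upstream (chr2:46120903-46121903). Its signal was 78.6, 71.7 and 113 units after LPS and 10.3, 22.2 and 25.3 in vehicle, where the lowest value rests on 9 reads (log2 change 2.19 ± 0.26, limma adjusted p = 1.82e-06). Distance alone does not tie these sites to Zeb2. The RefSeq genes met at the 52 upstream sites carried only Gm or Vis symbols, and target genes were not measured. The sites at 464, 492 and 1114 kb were the 3 Zeb2 sites that were also higher on the deposited scale. They were also the only Zeb2 sites with an FDR under 0.05 in the authors' deposited table.

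**Figure D3:**
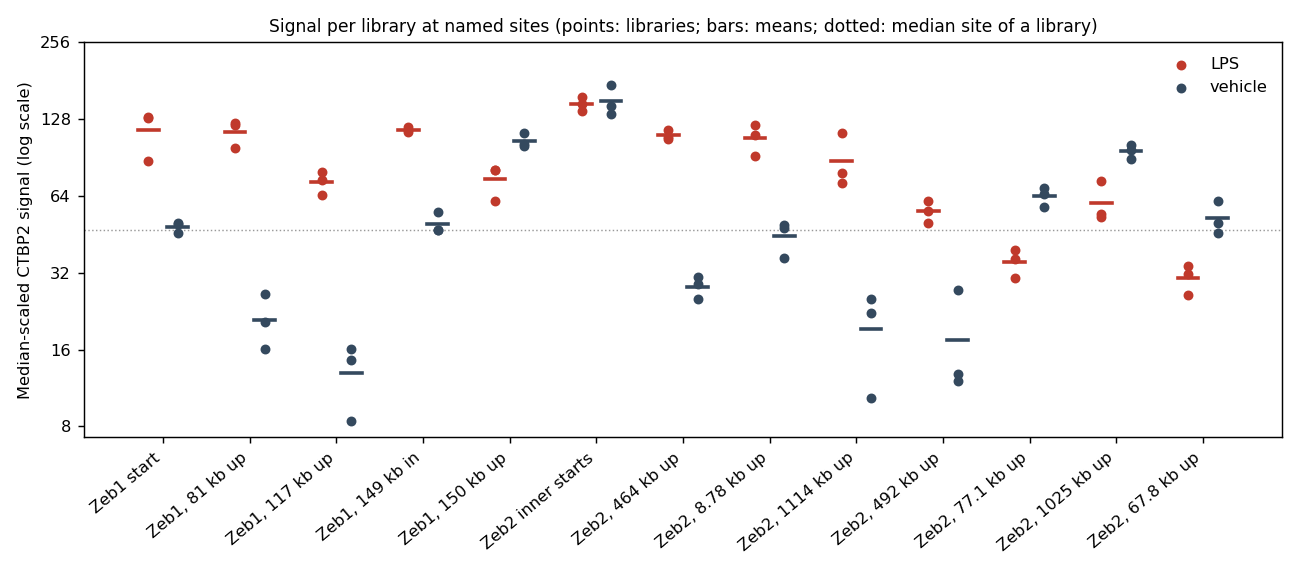
Scaled CTBP2 signal (log axis) at 13 sites of both regions. Each point is a library, LPS left and vehicle right, the bars are group means and the dotted line is the median site, 46.9. The groups overlap at the inner Zeb2 starts, whereas LPS lies above vehicle at both leading upstream sites and below it at the Zeb2 sites 67.8, 77.1 and 1025 kb upstream.

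The mean signal per site was also computed by stretch. Over the first 250 kb upstream of Zeb2 it was 66.9 ± 1.07 units after LPS and 71.7 ± 1.19 in vehicle (SD, n = 3 each), the one stretch of either region with the LPS mean below the vehicle mean. Between 250 and 500 kb it was 47.1 ± 1.68 units after LPS and 26.0 ± 0.962 in vehicle. Between 500 and 750 kb it was 51.3 ± 3.197 after LPS and 38.8 ± 3.01 in vehicle. Past 1000 kb it was 56.9 ± 7.73 after LPS and 45.8 ± 3.84 in vehicle. In the Zeb2 gene it was 53.1 ± 7.33 after LPS and 42.5 ± 4.33 in vehicle. After median scaling, the LPS libraries did not overlap the vehicle libraries in any of these stretches of 10 or more Zeb2 sites. No test was run on the stretches, and they were not computed on the deposited scale. The fall over the first 250 kb was small, -0.10 on the log2 scale, where the scalings differ by 0.062 in the median change of all sites. By called sites, the 7 lower Zeb2 sites had a median vehicle level of 63.9 units and the 26 higher ones 34.3. Over the whole table the same medians were 69.1 and 30.3, so that order was not particular to Zeb2. The vehicle level is itself part of the change by which sites were called, so such an order is partly built in.

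**Figure D4:**
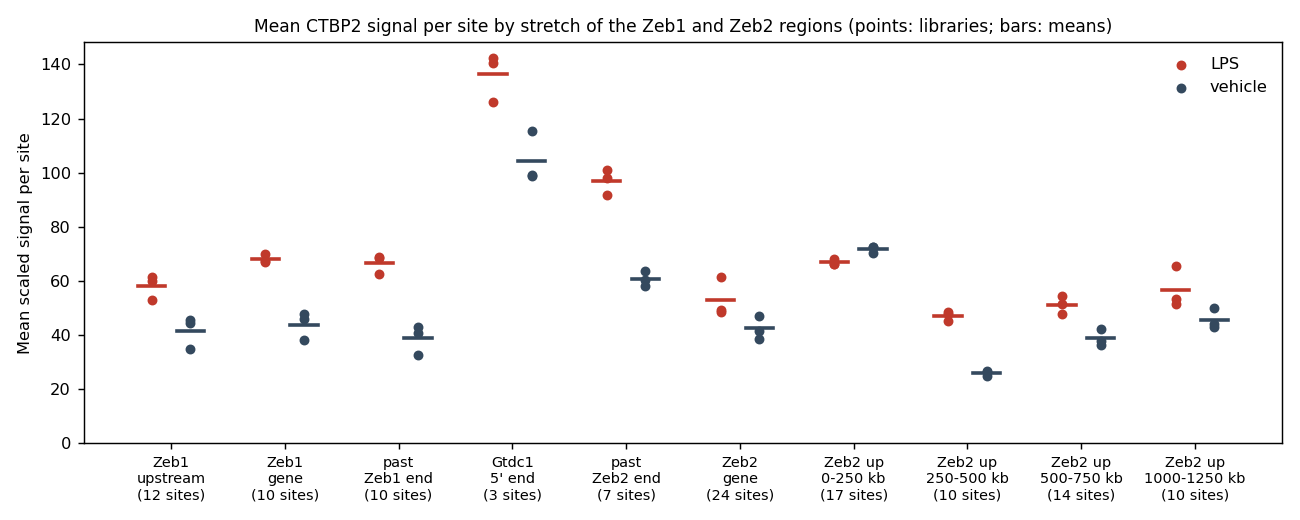
Mean scaled CTBP2 signal per site in 10 stretches of the Zeb1 and Zeb2 regions; 1 lone site 783 kb upstream of Zeb2 is not drawn. Each point is a library, LPS left and vehicle right, and the bars are group means. LPS lies above vehicle in 9 stretches and below it, at 66.9 against 71.7, in the first 250 kb upstream of Zeb2.

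Both regions were rich in sites. There were 6.4 sites per 100 kb in the Zeb1 region and 5.93 in the Zeb2 region. Windows of the same size across the table had a median of 4 sites where Zeb1 had 32 (87.9% of 5423 windows had fewer), and of 23 where Zeb2 had 86 (91.2% of 1862 had fewer). Within the desert the sites were uneven, with an empty gap of 242 kb between 783 and 1025 kb upstream of Zeb2.

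The sites elsewhere in the table whose 6 scaled log2 values lay nearest to those of the leading Zeb1 site were named Hint3, Nrp2, Gm9794, Actn4 and Morrbid by the table (Euclidean distance 0.357 to 0.478 over the 6 libraries). For the leading Zeb2 site they were named Fyco1, Fmnl2, Syk, Sord and Npepps (0.226 to 0.345). These names follow the table and may not be the nearest genes. The likeness is of level and change together.

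Other genes of the CtBP network were described in 3 lists, to be read against the 16.1% higher and 13.5% lower of all sites. Sites were counted within 10 kb of each gene that could be placed. In the co-repressor core (13 of 16 genes placed), 9 of 99 sites were higher (9.09%) and 10 lower (10.1%). Its leading sites were those of Zmynd8 (188 units after LPS and 49.7 in vehicle), a reader of histone marks, Kdm1a (1.63), the histone demethylase LSD1, Zfp217 (-0.87), a zinc finger protein of the complex, and Ehmt1 (1.18), a histone H3 lysine 9 methyltransferase. Ctbp2 itself had 3 lower and no higher site among 10.
Among the other DNA-binding CtBP partners (18 of 25 symbols placed), 24 of 139 sites were higher (17.3%) and 27 lower (19.4%). Foxp1, a forkhead repressor, held 12 of each among 57 sites, with a leading change of 1.95. Zbtb16, the repressor PLZF, had 6 of 9 sites lower, with a leading change of -1.25. Gfi1 (1.34) and Klf3 (1.14), both zinc finger repressors, led with higher sites.
Among E-box factors and the TGF-beta network around the ZEB proteins (18 of 19 placed), 13 of 119 sites were higher (10.9%) and 21 lower (17.6%). Cdh1, the E-cadherin gene that ZEB proteins repress in epithelial cells, had 1 lower site of 4 (-0.80). Tgfb1, the gene of the ligand, had 1 higher and 1 lower site of 7, led by the lower one (-0.95). Smad3, a transducer of its signal, had 3 higher and 3 lower sites of 16, led by a higher one (1.25). Tgfbr2, a receptor gene, had 1 higher site (1.06) and 3 lower ones of 16, with a median change of -0.29. The median change over the sites was -0.028, -0.024 and -0.13 in the 3 lists, beside -0.017 over all sites. All leading sites named here were called in limma, with adjusted p between 1.39e-12 and 9.25e-05.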

How the data were processed

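The input was 1 deposited table of 62236 sites. Its 6 library columns hold normalised signal made by the authors; how each library was normalised is not given in the sources used. Its log2 concentrations and fold change, p-values and FDR were deposited by the authors and are quoted only as such. The submitters' processing notes list, among others, DiffBind 3.16, MACS3 3.0.0a5 and the aligner BWA 0.7.17. The notes list mm39, GRCm39 and mm10 without their roles.

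Low values (up to 300 steps) were whole multiples of 1 step per column within 0.1, for 100% of them, which gave the estimated reads. A second search, starting from the smallest value of each column, did not recover whole reads, so the reads are approximate and served no test. Libraries were scaled by their medians. limma 3.58.1 in R 4.3.3 (trend, robust; pseudocount 1) compared LPS with vehicle over all sites, with no covariate, after tests on simulated data. Intervals cover the spread between libraries only. Sites were tied to genes where the shift that brought most gene starts within 500 bp of a site stood clear of the other shifts (best elsewhere 15 starts around Zeb2 and 8 around Zeb1). The members, gene lists and naming rule were chosen with earlier results of these data known. Named were, per region, the called sites with the smallest adjusted p in each direction (up to 8 for Zeb2, 4 for Zeb1), the 3 strongest sites and those nearest the gene starts.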

Additional observations from a re-analysis of the deposited data

How the results depend on the processing

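On the deposited scale, 1178 sites were higher and 30 lower in the whole table, 3 and 0 in the Zeb2 region, and 4 and 0 in the Zeb1 region; the cause was not tested. At an adjusted p under 0.01, 6924 sites of the whole table were higher and 4699 lower. In the Zeb2 region 17 were higher and 4 lower, and in the Zeb1 region 13 and 0, as a stricter threshold must reduce calls. Counting only each gene and 50 kb on either side left 9 higher and 0 lower of 32 Zeb2 sites, and 7 higher and 0 lower of 15 Zeb1 sites, as fewer sites were counted. Leaving out 1 library at a time gave 19 to 26 higher and 5 to 7 lower Zeb2 sites, and 12 to 16 higher and 0 to 2 lower Zeb1 sites. Over the whole table it gave 7691 to 10081 higher and 6032 to 7913 lower sites. Called without every library in turn were 17 of the 26 and 4 of the 7 Zeb2 sites, and 12 of the 16 and 0 of the 1 Zeb1 site. The same count was not made over the whole table. The change at the inner Zeb2 starts, never called, turned to 0.028 on the deposited scale, 0.011 without LPS replicate 2 and 0.074 without vehicle replicate 3 (range when 1 library is left out, -0.12 to 0.074). The other pseudocounts, the filter on low values and the scaling by total signal changed the call of none of the 26 named sites. Same-numbered libraries correlated at 0.111, 0.0385 and 0.214, and LPS 2 and LPS 3 but not LPS 1 (best with vehicle 2, 0.148) correlated best with their own number. The second pair was too weak for the numbers to be treated as pairing; with a replicate block, 26 higher and 8 lower Zeb2 sites, 17 higher and 1 lower Zeb1 site, and 11692 higher and 10398 lower sites in all were called, and no named site changed its call. The planned edgeR and DESeq2 alternatives were not run: the table holds normalised values, and whole reads were not recovered by each of the searches for a step. Depth limits the weakest sites, with single values down to 4 reads.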
